A study of Arabidopsis thaliana with 32 samples.

Results

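Transcript levels in leaves of the atxr5/6 double mutant of Arabidopsis thaliana were compared with those of the Col0 wild type, gene by gene and for each annotated transposable element (TE). The comparison uses the 4 RNA-seq libraries whose titles name these genotypes, 2 for each, out of 8 RNA-seq libraries and 32 samples in the series. The other RNA-seq libraries are from gcn5 and atxr5/6 gcn5 plants. They entered the same fit, where they helped to set the count filter, the scaling and the estimate of spread. Their levels are given only as context. The remaining 24 samples are chromatin immunoprecipitation libraries that were not analysed here. All plants were Col0, were sampled as leaves at 3 weeks and grew in 16 h of light and 8 h of dark. The wild type group carries no mutation in the labels, and the mutant group is labelled as mutated in ATXR5 and ATXR6, with no allele named. The labels do not say whether the 2 libraries of a genotype came from separate plants or cultures. The p-values thus measure the spread between libraries of a genotype, pooled over all genotypes in the fit, which may be technical.

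ATXR5 and ATXR6 are SET-domain enzymes that place a single methyl group on lysine 27 of histone H3.1, the H3 variant laid down during DNA replication. The mark is found mainly in heterochromatin, and plants without both enzymes are known for the release of silenced TEs and for extra DNA copies of heterochromatic regions. In plants, broken or stalled DNA activates the kinases ATM and ATR, which act through the transcription factor SOG1 to switch on repair, nucleotide supply and cell cycle arrest genes.

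Gene counts summed to 43969417 and 26607806 in wild type replicates 1 and 2 and to 43852374 and 28802057 in the atxr5/6 replicates, and TE counts ranged from 75865 to 171823. Levels are given as CPM (counts scaled to a library of fixed size) on library sizes scaled by the TMM method. Several properties of the libraries differ between replicates or between genotypes. Ribosomal RNA features held 0.293% and 0.644% of gene counts in wild type and 0.877% and 2.37% in atxr5/6, so both mutant libraries lay above both wild type libraries. Wild type replicates were further apart than mutant replicates. Among 16254 genes with a mean of at least 1 CPM in both genotypes, 320 differed more than 2-fold between the wild type libraries and 18 between the atxr5/6 libraries. Wild type replicate 2 stood above replicate 1 in stress and jasmonate genes, and these results are given below with and without it. As for the tissue, 20 nuclear photosynthesis genes together reached 49254 to 51593 CPM in each of the 4 libraries, and 8 floral and meristem markers together reached 8.29 to 12.3 CPM.

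The targeted genes were read first. ATXR5 (AT5G09790) was at 3.26 and 3.21 CPM in wild type against 0.777 and 0.850 CPM in the mutant. The groups did not overlap, and ATXR5 fell by 1.99 on the log2 scale (SE 0.19, adjusted p 0.00141, edgeR quasi-likelihood test with Benjamini-Hochberg adjustment). ATXR6 (AT5G24330) was at 0.457 and 0.464 CPM in wild type against 0.216 and 0.196 CPM in the mutant, with a log2 fold change of -1.13 (SE 0.37) that missed the threshold (adjusted p 0.0844). HAG1 (AT3G54610), the gene of the acetyltransferase GCN5, was at 5.33 and 4.25 CPM in wild type against 4.71 and 5.56 CPM in atxr5/6, and these ranges overlapped.

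Many genes changed, most of them modestly. Of 19575 genes tested, 2578 (13.2%) were called at an adjusted p under 0.05, with 1072 (5.48%) higher and 1506 (7.69%) lower in atxr5/6. The median absolute log2 fold change was 0.79 among the higher genes and 0.87 among the lower ones. By fitted values the higher genes had the longer tail, since 75 of them rose by at least 3 on the log2 scale against 47 lower genes that fell by as much. A fitted change of a gene at the floor of 3 counts per library in one genotype has no exact size, which applies to 48 higher genes in wild type and to 14 lower genes in atxr5/6. Most of the 48 are among the 75, so the length of that tail is not exact. Levels did not overlap between the genotypes in 61.3% of all genes tested. Without atxr5/6 replicate 1, 112 genes were called higher and 56 lower, and without replicate 2, 142 were higher and 70 lower. In these fits the lone mutant library is assumed to vary like the other genotypes. Replicates of gcn5 and atxr5/6 gcn5 differed more (chi-square per degree of freedom 85.4 and 87.1) than those of atxr5/6 (22.5) and wild type (23.8). Why calls were lost in these fits was not tested. The median log2 fold change of the DNA break response list described below was 2.55 without replicate 1 and 2.58 without replicate 2, beside 2.56 with both. Without wild type replicate 2 the calls numbered 697 higher and 826 lower. With the ribosomal RNA share of each library as a covariate, 181 were higher and 411 lower. All 13 alternative settings together kept 93 of the higher and 49 of the lower calls.

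**Figure D1:**
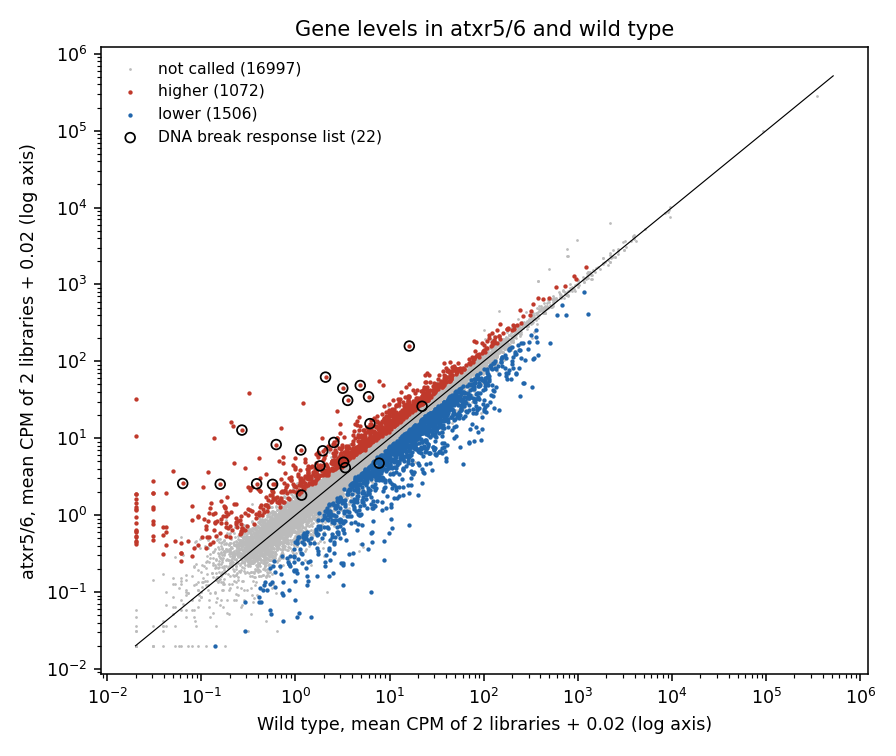
Mean CPM of the 2 atxr5/6 libraries against mean CPM of the 2 wild type libraries for every gene tested, on log axes with 0.02 CPM added so that genes at 0 appear; colours mark the 1072 higher and 1506 lower calls, and open circles mark the 22 tested genes of the DNA break response list. Most called genes lie close to the diagonal, and most circled genes lie well above it.

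The 10 genes described first are those with the smallest p for an increase among genes with a symbol in the RefSeq table, a change of at least 1 on the log2 scale and no overlap, and most of them act in DNA repair and nucleotide supply. Some loci without a symbol there had smaller p. KCS17 (AT4G34510), an enzyme that elongates very-long-chain fatty acids, was at 0.239 and 0.154 CPM in wild type against 13.9 and 14.5 CPM in atxr5/6. The mutant libraries were close together and far above both wild type libraries, with a fitted log2 change of 6.07 (SE 0.19, adjusted p 1.25e-05, edgeR). PARP2 (AT4G02390), a poly(ADP-ribose) polymerase that acts at DNA breaks, rose from 1.93 and 2.2 CPM to 64.2 and 60.4 CPM, a fitted log2 change of 4.92 (SE 0.18, adjusted p 1.25e-05). XRI1 (AT5G48720), first described as a gene induced by X-rays, rose from 4.59 and 5.14 CPM to 48.5 CPM in both mutant libraries (log2 fold change 3.33, SE 0.13, adjusted p 1.91e-05). Both of these genes belong to the break response. TSO2 (AT3G27060), a small subunit of ribonucleotide reductase, went from 18.1 and 14.3 CPM to 162 and 155 CPM, and the thymidine kinase TK1a (AT3G07800) from 6.54 and 5.37 CPM to 35.2 and 34.1 CPM. BRCA1 (AT4G21070), a recombination protein, went from 4.48 and 2.66 CPM to 31.6 and 30.5 CPM. The checkpoint clamp loader ATRAD17 (AT5G66130) reached 8.87 and 8.73 CPM from 2.52 and 2.55 CPM. For each of these genes the lower mutant library exceeded the higher wild type library more than the replicates differed. AHP2 (AT1G13330), a protein of meiotic recombination, rose from 0.391 and 0.541 CPM to 3.35 and 3.40 CPM. TRFL10 (AT5G03780), a protein with a telomere-repeat-binding-like domain, rose from 1.78 and 2.05 CPM to 11.3 and 8.66 CPM. MRU1 (AT5G35490) rose from 8.87 and 8.46 CPM to 25.8 and 26 CPM. All 10 stayed called under each of the 13 alternative settings.

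The 10 genes with the smallest p for a decrease under the same limits came mainly from hormone metabolism and defence. PCC1 (AT3G22231), a small membrane protein tied to pathogen response and the clock, was at 93.4 and 73.1 CPM in wild type against 13.1 and 14.9 CPM in the mutant (log2 fold change -2.57, SE 0.16, adjusted p 0.000168, edgeR). SEN1 (AT4G35770), a gene induced by darkness and senescence, was at 101 and 87.7 CPM in wild type against 9.46 and 9.61 CPM in the mutant (log2 fold change -3.31, SE 0.31, adjusted p 0.00133). WES1 (AT4G27260), which conjugates auxin and other acids to amino acids, fell from 21.7 and 25.3 CPM to 6.28 and 6.80 CPM (log2 fold change -1.84, SE 0.11, adjusted p 0.000123). No mutant library reached a wild type library for any of the 3 genes. ST2A (AT5G07010), a sulfotransferase of hydroxyjasmonate, fell from 11.3 and 9.46 CPM to 1.38 and 1.41 CPM. CKX5 (AT1G75450), which degrades cytokinin, fell from 20.3 and 25.7 CPM to 4.02 and 2.97 CPM. UGT74F2 (AT2G43820), which glucosylates salicylic acid, fell from 20.3 and 20.5 CPM to 4.75 and 4.12 CPM. The other genes act in signalling or lipid activation. LYK4 (AT2G23770), a receptor-like kinase of chitin perception, fell from 17.8 and 19.97 CPM to 7.15 and 7.58 CPM. The ion channel CNGC11 (AT2G46440) fell from 49.3 and 70.4 CPM to 17.8 and 18.4 CPM. MEK1 (AT4G26070), a MAP kinase kinase, fell from 18.6 and 23.4 CPM to 6.97 and 7.65 CPM, and AAE5 (AT5G16370), an acyl-activating enzyme, from 21.3 and 22.2 CPM to 6.20 and 6.47 CPM. These 10 genes, too, stayed called under each of the 13 alternative settings.

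**Figure D2:**
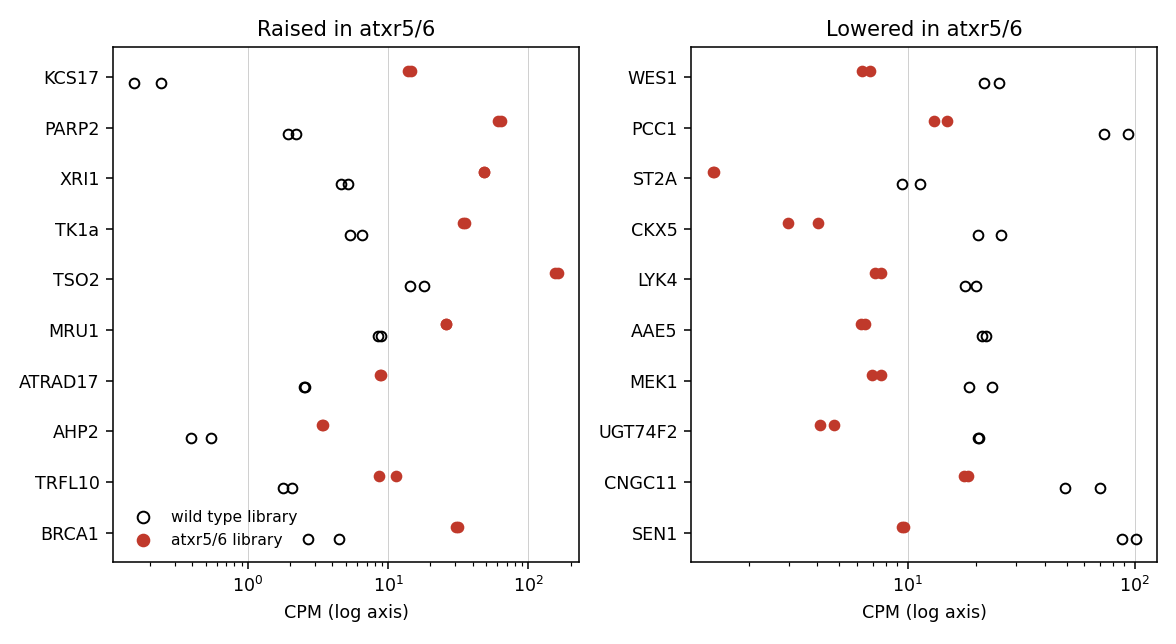
CPM in each library, on log axes, for the 10 raised (left) and 10 lowered (right) genes with the smallest p among called genes that have a symbol, a log2 change of at least 1 and no overlap; open circles are the 2 wild type libraries and filled circles the 2 atxr5/6 libraries. In every gene the filled circles lie close together and do not overlap the open ones.

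The DNA break response list, which holds genes known to be induced through SOG1 together with their regulators, had the highest share of called members of the 24 lists. Of 22 tested members 17 were called higher (77.3%, against 5.48% of all genes) and 1 lower, and the list median was 2.56 on the log2 scale beside -0.006 over all genes. In 21 of the 22, both mutant libraries lay above both wild type libraries, beside 5803 of all 19575 genes tested. Summed over the list, levels were 92.4 and 85.4 CPM in wild type against 499 and 490 CPM in atxr5/6. Among signal outputs that stop the cell cycle, the cyclin-dependent kinase inhibitor SMR7 (AT3G27630) went from 0.152 and 0.348 CPM to 12.1 and 13.4 CPM (log2 fold change 5.80, SE 0.27, adjusted p 4.11e-05, edgeR). SMR5, a second inhibitor known from this response, was listed with no count in these libraries. Of the transcription factors, NAC103 rose from 0.348 and 0.386 CPM to 2.72 and 2.35 CPM. NAC085 rose from 0.0869 and 0 CPM to 2.57 and 2.55 CPM, and NAC044 from 0.239 and 0.0386 CPM to 2.2 and 2.81 CPM. These last genes rest on few wild type counts.

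Repair factors on that list rose as well. GMI1, a protein related to chromosome maintenance complexes, rose from 2.54 and 3.79 CPM to 43.7 and 45.7 CPM. RPA1E (AT4G19130), a subunit of the single-strand DNA binding complex, rose from 0.630 and 0.579 CPM to 8.25 and 8.27 CPM (log2 fold change 3.75, SE 0.17, adjusted p 3.52e-05, edgeR). The upstream regulators behaved differently from these outputs. SOG1 (AT1G25580) itself fell, from 7.41 and 8.03 CPM to 4.4 and 5.03 CPM (log2 fold change -0.71, SE 0.12, adjusted p 0.00912). ATM was at 21.4 and 22.9 CPM in wild type against 24.3 and 27.7 CPM in atxr5/6, and ATR at 3.61 and 3.13 CPM and 4.32 and 3.92 CPM, and neither passed the test. Without atxr5/6 replicate 1, 13 list members were called higher, with adjusted p of 0.0579 for NAC085, 0.0667 for GR1, 0.0892 for NAC044, 0.136 for SYN2 and 0.117 for SOG1. Without atxr5/6 replicate 2, 15 were called higher, with adjusted p of 0.0979 for NAC044, 0.0581 for SYN2 and 0.0648 for SOG1.

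Repair genes outside the break response moved little. On the list of homologous recombination and end joining, 4 of 17 tested members were called higher (23.5%, against 5.48% of all genes) and 1 lower, with a median of 0.17. Among the higher members were BRCA1, GR1 and RAD54, proteins of homologous recombination. RAD54 lost its call without wild type replicate 2 (adjusted p 0.0608) or either atxr5/6 library (adjusted p 0.140 and 0.115), and GR1 without atxr5/6 replicate 1 (adjusted p 0.0667). The end joining ligase cofactor XRCC4 was called lower, from 4.80 and 5.29 CPM to 3.67 and 3.40 CPM (log2 fold change -0.50, SE 0.13, adjusted p 0.0384, edgeR), and lost its call when any 1 of the 4 libraries was left out (adjusted p 0.0514 to 0.238). The ligase LIG4 was at 11.2 and 11.5 CPM in wild type against 12.3 CPM in both mutant libraries. KU70 and KU80, which bind broken ends, had log2 fold changes of -0.04 (SE 0.12) and -0.05 (SE 0.13).

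In nucleotide supply, 3 of 8 tested members were higher (37.5%, against 5.48% of all genes) and none lower, with a median of 0.43. The median was 0.69 without wild type replicate 1 and 0.27 without wild type replicate 2. In none of the 8 did wild type replicate 2 lie above replicate 1. Besides TSO2 and TK1a, the large ribonucleotide reductase subunit RNR1 rose from 27.7 and 21.5 CPM to 38.3 and 40.2 CPM (log2 fold change 0.67, SE 0.13, adjusted p 0.0144, edgeR). Their relatives did not pass: RNR2A had a log2 fold change of 0.29 (SE 0.10) and TK1B of -0.40 (SE 0.16). RNR1 was no longer called without atxr5/6 replicate 1 (adjusted p 0.111) or replicate 2 (adjusted p 0.124). 

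For replication licensing, 3 of 15 tested members were higher (20% beside 5.48% of all genes), none was lower, and 14 had a fitted change above 0 (median 0.44). These were ORC2 of the origin recognition complex and the helicase subunits MCM5 and MCM2, with log2 fold changes of 1.24, 0.53 and 0.51 (SE 0.26, 0.13 and 0.13; adjusted p 0.0195, 0.0347 and 0.0407, edgeR). In 14 of the 15 members wild type replicate 1 lay above replicate 2. No member was called without wild type replicate 2 or without either atxr5/6 library, and 6 were called higher without wild type replicate 1. Of 16 mitotic cyclins and kinases only CYCB1;1 was called (6.25% higher, against 5.48% of all genes). It rose from 2.09 and 1.78 CPM to 6.82 and 6.86 CPM (log2 fold change 1.81, SE 0.15, adjusted p 0.000792, edgeR). CYCB1;1 is a B-type cyclin that is also induced by DNA breaks. The median of the list was 0.29, beside 0.48 without wild type replicate 1 and 0.11 without wild type replicate 2. In none of the 16 did wild type replicate 2 lie above replicate 1. CYCB1;2, a relative of CYCB1;1, had a log2 fold change of 0.03 (SE 0.20).

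Of 10 tested inhibitors of cyclin-dependent kinases, 4 were higher (40%, while 5.48% of all genes were) and none lower, with a median of 0.93. After SMR7 these were KRP6, from 2.80 and 3.98 CPM to 7.75 and 8.23 CPM, LGO, from 0.848 and 0.502 CPM to 1.92 and 2.09 CPM, and KRP1, from 1.11 and 1.04 CPM to 2.16 and 1.93 CPM. Only SMR7 stayed called when either atxr5/6 library was left out, where the adjusted p of the other members ranged from 0.0626 to 0.148. None of the 5 tested genes for histone H3.1, the substrate of ATXR5 and ATXR6, and none of the 3 for H3.3 was called. Their log2 fold changes ran from -0.18 to 0.36. In none of the 5 H3.1 genes did wild type replicate 2 lie above replicate 1. The H3.1 median of 0.16 was 0.50 without wild type replicate 1 and -0.06 without wild type replicate 2. Since these are bulk leaf samples, fewer cells of a type and less RNA per cell cannot be told apart for these or any other genes.

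**Figure D3:**
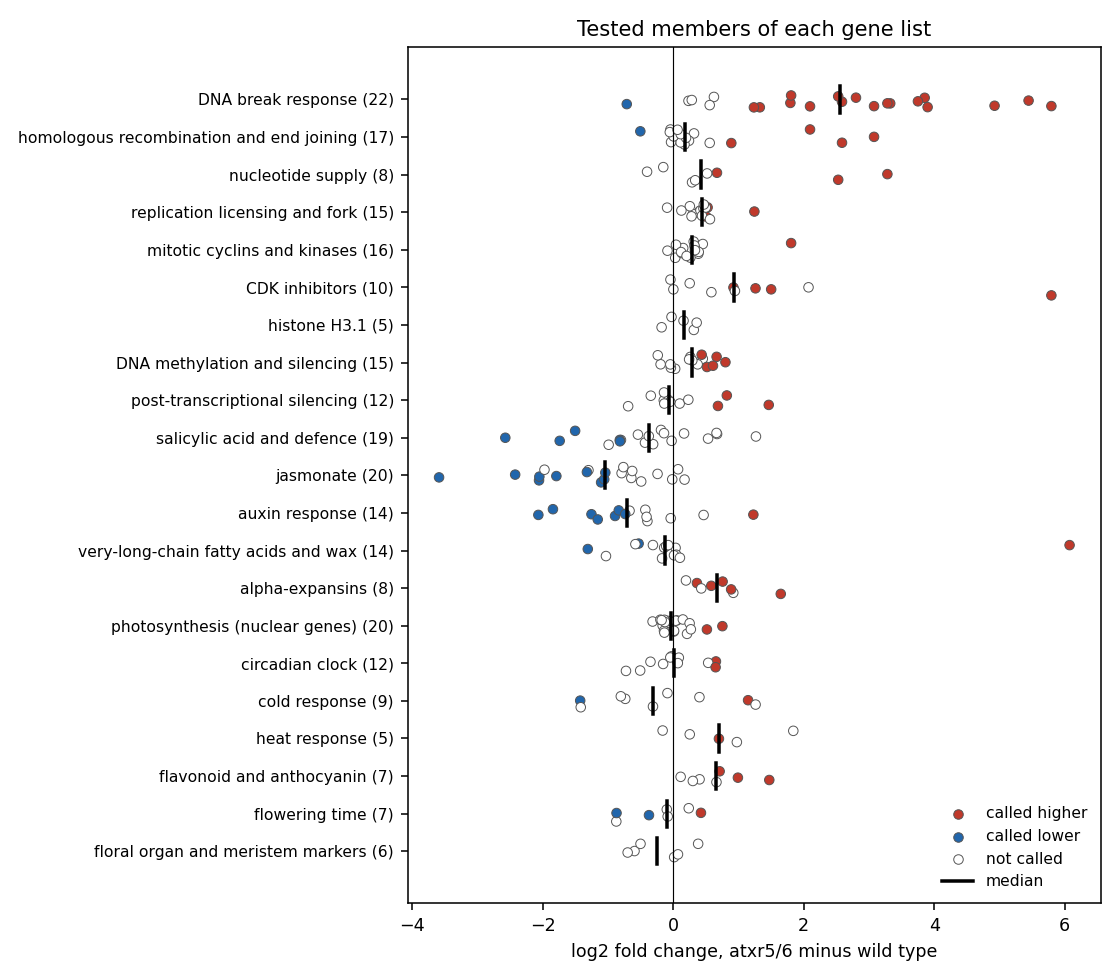
Fitted log2 fold change of atxr5/6 against wild type for the tested members of each gene list with at least 5 tested members; each point is a gene, red and blue points are called higher and lower, white points are not called, and black bars are list medians. The DNA break response list lies mostly right of 0 with a median of 2.56, the jasmonate list mostly left of 0 with a median of -1.05, and photosynthesis genes cluster near 0.

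Some genes of the silencing machinery rose. On the list of DNA methylation and transcriptional silencing, 5 of 15 tested members were called higher (33.3%, against 5.48% of all genes) and none lower, with a median of 0.29. RDR2, the RNA polymerase that makes double-stranded RNA for silencing, rose from 4.65 and 4.48 CPM to 7.53 and 8.43 CPM (log2 fold change 0.80, SE 0.13, adjusted p 0.00946, edgeR). MET1, the enzyme that maintains CG methylation, rose from 7.91 and 8.19 CPM to 12.2 and 13.3 CPM, and the dicer DCL3 from 4.28 and 4.21 CPM to 6.82 and 6.11 CPM. The remaining calls were SUVH4, a histone H3K9 methyltransferase, and NRPD1A, the large subunit of RNA polymerase IV. The remodeller DDM1, required for TE silencing, had a log2 fold change of 0.37 (SE 0.15) and did not pass. None of the 5 was called without atxr5/6 replicate 1 or replicate 2, and only RDR2 without wild type replicate 2. Without wild type replicate 1, MET1, SUVH4 and DCL3 lost their calls (adjusted p 0.0545 to 0.0728).

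In post-transcriptional silencing 3 of 12 tested members were higher (25% beside 5.48% of all genes), none lower, and the median was -0.06, which was above 0 without wild type replicate 2 (0.05). In 4 of the 12 both mutant libraries lay below both wild type libraries and in 4 above, beside 6181 and 5803 of all 19575 genes tested. AGO2, an argonaute of antiviral defence that is also tied to small RNAs at DNA breaks, rose from 5.89 and 7.65 CPM to 18.1 and 19.0 CPM (log2 fold change 1.46, SE 0.14, adjusted p 0.00137, edgeR) and stayed called under all 13 alternatives. AGO7 and SGS3, which act in the production of trans-acting small RNAs, rose by 0.82 (SE 0.18) and 0.69 (SE 0.17) on the log2 scale. Both of these lost their calls without wild type replicate 1, without atxr5/6 replicate 1 and without atxr5/6 replicate 2 (adjusted p 0.0923 to 0.232). The main argonaute AGO1 stood at 63.8 and 67.3 CPM in wild type against 58.0 and 60.6 CPM in atxr5/6, with an adjusted p of 0.400.

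Some jasmonate genes were lower in atxr5/6, and the wild type libraries differed widely in them. Of 20 tested members 9 were called lower (45.0%, against 7.69% of all genes) and none higher, with a median of -1.05. The enzymes of jasmonate synthesis AOC3 and OPR3 were among them. AOC3 was at 6.17 and 19.2 CPM in wild type against 2.40 and 2.22 CPM in the mutant (log2 fold change -2.42, SE 0.48, adjusted p 0.0175, edgeR), and OPR3 at 45.6 and 153 CPM and at 22.6 and 25.2 CPM. In both genes the ratio of wild type replicate 2 to replicate 1 exceeded the ratio of replicate 1 to either mutant library. The other 7 were JAZ repressors, the targets and brakes of jasmonate signalling. JAZ7 had the smallest p, falling from 2.52 and 4.87 CPM to 0.324 and 0.261 CPM (log2 fold change -3.59, SE 0.46, adjusted p 0.00394). JAZ8 fell from 0.630 and 1.08 CPM to 0.173 and 0.229 CPM.

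Wild type replicate 2 was more than 1.5-fold above replicate 1 in 15 of the 20 jasmonate genes, while no member differed by as much between the mutant libraries. Both mutant libraries lay below both wild type libraries in 14 of 20, beside 6181 of all 19575 genes tested. Summed over the list, levels were 834 and 1453 CPM in wild type against 862 and 857 CPM in atxr5/6, so that the mutant sums lie above that of wild type replicate 1. Without wild type replicate 2, 4 members were called lower and the median was -0.49, and without wild type replicate 1, 14 were called lower and the median was -1.35. No member was called without atxr5/6 replicate 1 (median -1.09) or replicate 2 (median -0.98). The storage protein genes VSP1 and VSP2, common readouts of jasmonate, were not called (adjusted p 0.876 and 0.987), and MYC2 was listed with no count.

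**Figure D4:**
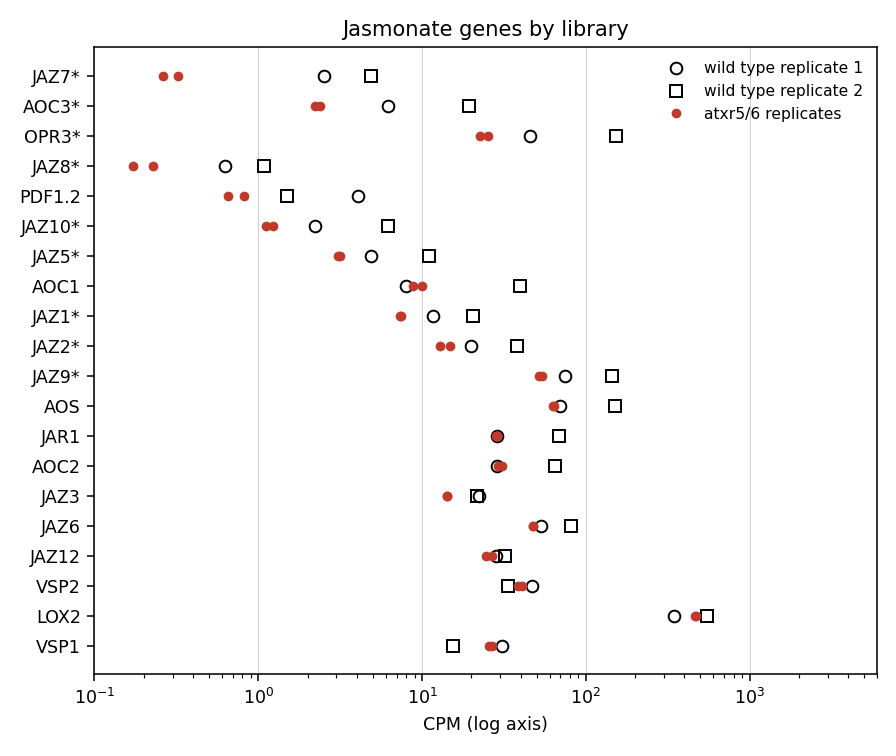
CPM on a log axis of the 20 tested jasmonate genes in each library, ordered by fitted change; open circles and squares are wild type replicates 1 and 2, filled circles the atxr5/6 replicates, and asterisks mark the 9 genes called lower. Squares lie to the right of open circles in 16 of the 20 genes, and in no gene do the filled circles differ by more than 1.5-fold.

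Salicylic acid and defence genes showed a mixed picture. Of 19 tested members 5 were lower (26.3%, against 7.69% of all genes) and none higher, and the median was -0.37. With library totals only, DESeq2 or the 4 libraries alone, 2 members were called higher, and with a replicate block 1 was. After PCC1 these were the transcription factor WRKY54, from 8.56 and 8.30 CPM to 2.89 and 3.07 CPM (log2 fold change -1.50, SE 0.15, adjusted p 0.00163, edgeR), and the salicylic acid receptor NPR1, from 26.8 and 34.5 CPM to 17.8 and 16.9 CPM (log2 fold change -0.82, SE 0.14, adjusted p 0.0114). SARD1, a factor that activates salicylic acid synthesis, and EDS1, a lipase-like immune regulator, were also lower. The synthesis gene ICS1 itself was at 6.93 and 7.26 CPM in wild type against 11.8 and 10.8 CPM in atxr5/6, and did not pass (log2 fold change 0.67, SE 0.19, adjusted p 0.0570). PR1, the classical output of the pathway, was at 3.54 and 4.75 CPM and at 4.17 and 3.2 CPM, with overlapping ranges. PCC1 and WRKY54 were the only members called without atxr5/6 replicate 1 or replicate 2. Without wild type replicate 2, EDS1 (adjusted p 0.132) and SARD1 (adjusted p 0.0731) lost their calls.

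Of 14 tested auxin response genes 7 were called lower (50.0%, against 7.69% of all genes) and 1 higher, and the median was -0.70. Both mutant libraries lay below both wild type libraries in 8 of the 14, beside 6181 of all 19575 genes tested. Among the GH3 enzymes, which conjugate auxin to amino acids, GH3.3 fell from 7.63 and 13.6 CPM to 2.50 and 2.48 CPM (log2 fold change -2.07, SE 0.25, adjusted p 0.00355, edgeR). DFL1, another GH3 enzyme, fell from 37.0 and 33.5 CPM to 19.1 and 20.5 CPM. IAA5, a repressor of auxin response, went the other way, from 0.870 and 1.12 CPM to 2.44 and 2.12 CPM (log2 fold change 1.23, SE 0.29, adjusted p 0.0290). WES1 alone stayed called without either atxr5/6 library, where the other members had adjusted p of 0.0506 to 0.204. Without wild type replicate 2, IAA2, IAA5 and GH3.17 lost their calls (adjusted p 0.0549, 0.0513 and 0.0745), and IAA5 did so without wild type replicate 1 (adjusted p 0.110).

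Alpha-expansins, proteins that loosen cell walls during growth, were higher in 5 of the 8 tested members of the list (62.5%, against 5.48% of all genes), with a list median of 0.67. Over all 12 tested genes with an EXPA symbol, 5 were higher (41.7%) and 1 lower (8.33%, against 7.69% of all genes), with a median of 0.51. The lower gene, EXPA16, is not on the list and fell from 2.02 and 3.51 CPM to 0.561 and 0.588 CPM (log2 fold change -2.23, SE 0.33, adjusted p 0.00613, edgeR). EXPA8 rose from 16.5 and 15.4 CPM to 50.9 and 49.1 CPM (log2 fold change 1.65, SE 0.29, adjusted p 0.0117, edgeR). EXPA11 rose from 19.3 and 16.5 CPM to 31.0 and 29.6 CPM, and EXPA15 from 1.56 and 1.89 CPM to 3.07 and 3.27 CPM. Both mutant libraries were above both wild type libraries in 7 of the 8, beside 5803 of all 19575 genes tested. No list member was called when either atxr5/6 library was left out (adjusted p 0.0888 to 0.247), where the list median was 0.66 and 0.68.

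Among 14 tested genes of very-long-chain fatty acids and wax, KCS17 rose and 2 relatives fell (14.3%, against 7.69% of all genes), with a list median of -0.12. KCS1, an elongase of the leaf epidermis, fell from 75.4 and 84.4 CPM to 32.9 and 31.5 CPM (log2 fold change -1.31, SE 0.14, adjusted p 0.00243, edgeR). KCS10, also known as FDH, fell from 155 and 154 CPM to 108 and 105 CPM (log2 fold change -0.53, SE 0.10, adjusted p 0.0122), and lost its call without atxr5/6 replicate 1 (adjusted p 0.122) or replicate 2 (adjusted p 0.133). Another elongase gene, KCS12, is not on the list and fell from 65.6 and 76.4 CPM to 14.1 and 12.5 CPM (log2 fold change -2.41, SE 0.40, adjusted p 0.00946), so that 1 of 17 tested KCS genes was higher and 3 were lower. The wax genes CER1 and CER3 had log2 fold changes of 0.01 (SE 0.26) and -0.31 (SE 0.13), and neither was called.

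The remaining lists had at most 3 called members each. Of 20 nuclear photosynthesis genes 2 were called higher (10%, against 5.48% of all genes), and the list median was -0.03. The 2 were RBCS1B and RBCS2B, copies of the small Rubisco subunit so alike that reads may be shared between them. Of 12 clock genes 2 were called higher (16.7%, against 5.48% of all genes). They were the morning factors CCA1 (25.1 and 28.0 CPM to 42.1 and 41.3 CPM) and RVE8 (6.46 and 6.30 CPM to 10.4 and 9.54 CPM). The labels give no hour of sampling. Of 7 flavonoid and anthocyanin genes 3 were higher (42.9%, against 5.48% of all genes), and all 7 fitted changes were above 0. The 3 were PAP1 (AT1G56650), which activates the pathway, and the enzymes LDOX and TT4. Their log2 fold changes were 1.47, 0.99 and 0.71 (SE 0.19, 0.18 and 0.16; adjusted p 0.00393, 0.0124 and 0.0230, edgeR). In the cold list CBF2, an upstream activator, rose from 2.24 and 1.93 CPM to 4.77 and 4.54 CPM and the dehydrin COR47 fell from 116 and 230 CPM to 63.5 and 65.3 CPM. In 8 of these 9 cold genes wild type replicate 2 was more than 1.5-fold above replicate 1, and COR47 lost its call without it (adjusted p 0.0918). The median of the cold list went from -0.31 to 0.82 without wild type replicate 2, with 2 members higher and none lower. Of 5 tested heat response genes HSP90.1 was higher (20%, against 5.48% of all genes), from 2.7 and 3.86 CPM to 5.16 and 5.29 CPM.

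Flowering regulators and cell markers shifted little. The floral repressor SVP rose from 36.7 CPM in both wild type libraries to 49.2 and 49.3 CPM. The floral activator AGL20, better known as SOC1, fell from 57.4 and 55.2 CPM to 44.3 and 42.7 CPM, and the repressor MAF5 from 6.59 and 6.26 CPM to 3.28 and 3.79 CPM. None of the 6 tested floral and meristem markers and none of the 4 guard cell markers was called. The summed guard cell markers were at 30.1 and 24.6 CPM in wild type against 21.6 and 19.2 CPM in atxr5/6. Of 4 vascular markers the phloem sucrose carrier SUC2 was lower (25%, against 7.69% of all genes), from 108 and 106 CPM to 79.3 and 78.5 CPM. The 4 together went from 145 CPM in both wild type libraries to 111 and 109 CPM. Their part in the other results was not tested. Every call on the photosynthesis, clock, flavonoid, cold, heat, flowering and vascular lists was lost without atxr5/6 replicate 1 (adjusted p 0.0656 to 0.231) and without replicate 2 (adjusted p 0.0504 to 0.209). Without wild type replicate 2, RBCS1B, RBCS2B, AGL20 and MAF5 also lost theirs (adjusted p 0.0564 to 0.135), and without wild type replicate 1, HSP90.1, AGL20 and MAF5 did (adjusted p 0.0563 to 0.126).

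Among features that passed the count filter, TEs were raised more often than genes. Of 1540 TEs tested among 31189 in the table, 476 (30.9%) were called, 410 higher (26.6%) and 66 lower (4.29%) in atxr5/6, by edgeR at an adjusted p under 0.05. A TE near 0 in wild type passes the filter only through other libraries, so the share of 26.6% depends on the filter. Without the filter, 677 of 12650 TEs and 1349 of 26705 genes were called higher. Levels did not overlap between the genotypes in 62.1% of the TEs tested. TE counts per 100 gene counts were 0.280 and 0.285 in wild type and 0.392 and 0.400 in atxr5/6. The mutant share was 1.40 times the wild type share, and both mutant libraries were above both wild type libraries, with an exact two-sided permutation p of 0.333, the lowest value that 4 libraries in 2 groups can give. Reads of near-identical copies may have been split or shared in the deposited counts, so single copies are less certain than groups.

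Most raised TEs were near silent in wild type. Of the 410, 288 had at most 3 counts in each wild type library. With those at their lower bound against that floor, the median increase was 3.01 on the log2 scale, while the median of the fitted values was 5.74. With the same bounds 165 were at least 10-fold higher and 22 at least 100-fold higher. In atxr5/6, 65 of the 410 reached more than 5 CPM, 153 lay between 1 and 5 CPM and 192 stayed under 1 CPM. Their sum was 169 and 179 CPM in wild type against 1141 and 1154 CPM in atxr5/6, and the 10 strongest held 17.6% of the mutant sum. Most raised elements were thus at a low level in the mutant too.

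The raised TEs with the smallest p were AT4TE15820, AT3TE60425, AT5TE41070, AT5TE42135, AT5TE42440 and AT5TE42710. AT4TE15820 had no count in wild type and stood at 18.5 and 19.1 CPM in atxr5/6, at least 208-fold higher. AT3TE60425 went from 0.0217 and 0.0386 CPM to 17.8 and 19.0 CPM, at least 203-fold higher, and AT5TE42710 from 0.0652 and 0.0386 CPM to 19.9 and 18.8 CPM, at least 213-fold higher. The other three were at least 143-fold to 207-fold higher. All 6 kept their calls under each of the 14 settings run for TEs. By the chromosome digit in the identifier, raised TEs made up 23.1% of those tested on chromosome 1, 29.2% on 2, 29.0% on 3, 29.0% on 4 and 23.6% on 5.

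A smaller set of TEs was lower in atxr5/6. The 66 elements summed to 287 and 393 CPM in wild type against to 160 and 156 CPM in atxr5/6, and 5 of them were at the floor in the mutant. AT3TE76010 fell from 11.1 and 16.6 CPM to 4.21 and 4.05 CPM (log2 fold change -1.74, SE 0.26, adjusted p 0.000169, edgeR), AT5TE49725 from 9.04 and 8.57 CPM to 3.04 and 2.78 CPM, and AT4TE51190 from 7.96 and 15.3 CPM to 2.27 and 2.25 CPM. AT4TE36750, AT5TE80010 and AT2TE43295 fell by 1.59, 2.07 and 1.40 on the log2 scale. Elements that were abundant in wild type changed in both directions. AT1TE71775 fell from 40.1 and 63.3 CPM to 26.3 and 26.1 CPM, and AT5TE25390 rose from 12 and 14.1 CPM to 22.7 and 24.4 CPM. AT1TE83640 rose from 15.0 and 13.8 CPM to 21.2 and 20.3 CPM and AT2TE26610 fell from 20.3 and 29.1 CPM to 16.7 CPM in both mutant libraries. AT2TE26610 lost its call without wild type replicate 2 (adjusted p 0.217) and without either atxr5/6 library (0.125 and 0.128), and AT1TE83640 without either atxr5/6 library (0.0964 and 0.0508). The use of strand in counting is not given in the sources used here, so reads of such elements and of genes that overlap them cannot be told apart.

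**Figure D5:**
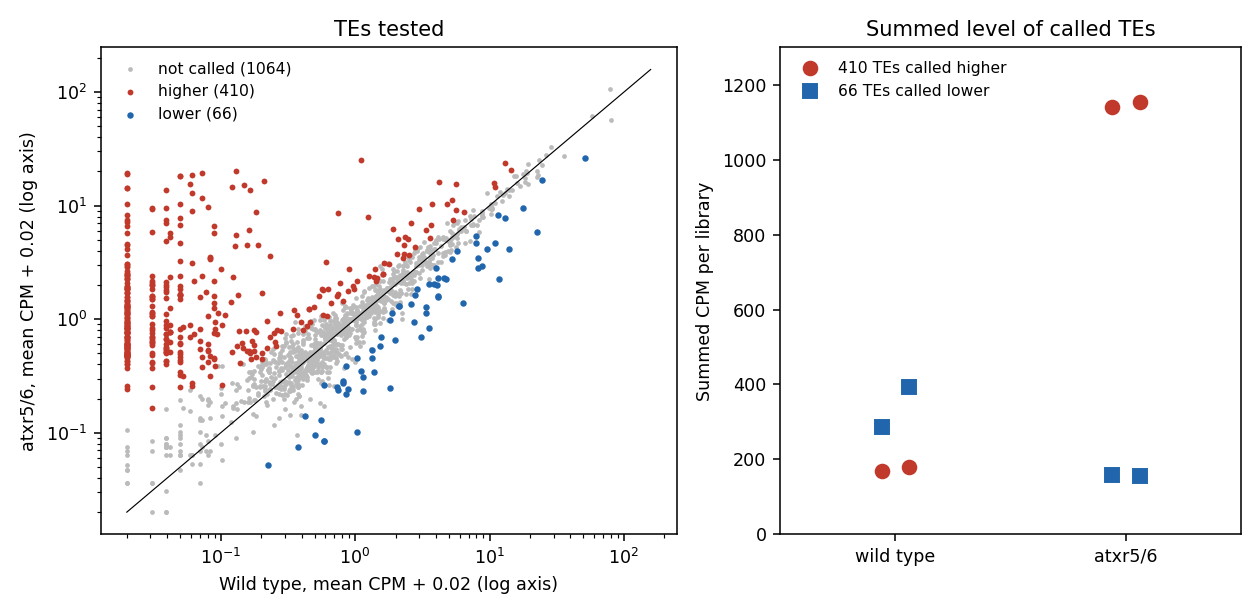
Left, mean CPM of each tested TE in atxr5/6 against wild type on log axes, with 0.02 CPM added so that elements at 0 appear, and colours for the 410 higher and 66 lower calls; right, summed CPM of each called set in each library on a linear axis. The raised TEs form a column at the left edge, where wild type is at or near 0, and their sum goes from 169 and 179 CPM to 1141 and 1154 CPM.

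The TE calls depended less on single libraries than the gene calls. Leaving out 1 library at a time gave 387 to 470 raised and 35 to 73 lowered TEs, and 340 to 375 of the 410 raised TEs remained called. Without atxr5/6 replicate 1, 37 TEs were lower, and without replicate 2, 35 were. With the ribosomal RNA share as covariate 315 were higher and 34 lower. The other genotypes give context for the raised set. The same 410 TEs summed to 789 and 952 CPM in gcn5 and to 610 and 582 CPM in atxr5/6 gcn5. The elements AT2TE00095 and AT3TE58570, which were picked for their high counts in gcn5, made up 541 and 702 CPM of the gcn5 sums. In the combined mutant they made up 205 and 187 CPM, against 16.0 and 34.9 CPM in atxr5/6. The sums of the remaining raised TEs were 248 and 250.5 CPM for gcn5, 405.5 and 395 CPM for the combined mutant, and 1125 and 1119 CPM for atxr5/6. The median level of the 410 was 1.1 CPM in atxr5/6 beside 0.0193 CPM in wild type, 0.0391 CPM in gcn5 and 0.319 CPM in the combined mutant. These libraries carry 13.3% to 21.6% of ribosomal RNA counts, and the part of that share in their levels was not tested. The median of the 1072 raised genes was 11.1 CPM in atxr5/6 beside 6.13 CPM in wild type, 7.13 CPM in gcn5 and 7.81 CPM in the combined mutant. The raised TEs and genes were chosen by their high values in these atxr5/6 libraries. Higher medians there than in the other genotypes are thus partly set by that choice.

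Called non-coding genes were mostly higher. Of 144 long non-coding RNAs tested, 15 were higher and 2 lower, and of 30 microRNA genes 4 were higher and none lower, beside 5.48% and 7.69% of all genes. Among the 4 were MIR854b, MIR854d and MIR854e, copies of a family known to lie in retrotransposon repeats. MIR854b went from 0.0217 and 0 CPM to 2.09 and 1.70 CPM, at least 20.9-fold higher, and MIR854d and MIR854e were at least 13.7-fold and 13.0-fold higher. These genes were singled out after their values were seen, and reads of the near-identical copies cannot be told apart. Of 132 plastid genes 2 were called higher, and of 134 mitochondrial genes none was called by edgeR.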

How the data were processed

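Total RNA of leaves was made into stranded libraries after ribosomal RNA depletion, per the labels' protocols. The deposited gene and TE tables hold raw read counts made by the authors, with 1 column per library. The submitters' processing notes name STAR 2.7.2a, featureCounts 1.6.4, DESeq2 1.26 and the build TAIR10; the annotation, use of strand and treatment of reads with several places are not given in the sources used here. Samples were grouped by title.

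Genes passing filterByExpr (minimum count 10) were scaled by TMM and tested with edgeR 4.0.16 (quasi-likelihood) in R 4.3.3, with all 8 libraries in 1 fit with 4 residual degrees of freedom. TEs used the gene table's library sizes. P-values were Benjamini-Hochberg adjusted over all features tested, and SE is the absolute log2 fold change over the square root of F. CPM were computed from the counts. In all 8 libraries 6636 genes and 18539 TEs were without a count. Replicates of a genotype differed beyond counting noise (chi-square per degree of freedom 22.5 to 87.1), and each library was treated as 1 sample. This spread does not show that the libraries came from separate plants. Alternatives were other scalings (also without plastid, mitochondrial and 8 ribosomal RNA features), other filters, DESeq2 1.42.0, the 4 libraries alone, a replicate block, the ribosomal RNA share as covariate, and each library left out.

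Names came from a RefSeq gene table (TAIR10.1), which held 33056 of 33341 identifiers (99.1%). The comparison and its 24 lists were chosen with earlier results of these data known, and lists carry no test of their own. Members were kept where locus and symbol or synonym matched (280 of 288 loci), with histone genes matched by the synonyms H3.1 and H3.3. Named genes are the targeted genes, the 10 higher and 10 lower with a symbol, an absolute log2 fold change of at least 1, no overlap and the smallest p, up to 3 called members per list and direction, and, of TEs, the 6 higher and 6 lower by p and the 4 with the highest mean CPM; further list members are named for their roles. 1 list member is not reported here. In simulated counts, 57.6% of 2-fold and 89.0% of 4-fold changes were recovered and 8.18% of calls were false over 19268 genes, with 52.2%, 94.3% and 4.38% over 1349 TEs.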

Additional observations from a re-analysis of the deposited data

How the results depend on the processing

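Gene counts of 1072 higher and 1506 lower stayed within 1.5 times under other scalings, filters, DESeq2 and the 4 libraries alone. The genes called were not all the same. Of the 2578 main calls, 1546 were kept with library totals only, 1817 with DESeq2 and 2050 with the 4 libraries alone. The other scalings and filters kept 2375 to 2555. With the ribosomal RNA share as covariate 592 genes were called, 181 higher and 411 lower, and 34 TEs lower; the cause was not tested. RLE size factors gave 1211 higher and 1303 lower, so the higher share of calls went from 41.6% to 48.2%, and it was 30.6% with the covariate, 34.2% without wild type replicate 1, 66.7% without atxr5/6 replicate 1 and 67.0% without atxr5/6 replicate 2. No scaling moved the median of all genes by more than 0.067 (log2). Leaving out 1 library gave 168 to 2687 genes, 112 to 918 higher and 56 to 1769 lower. For TEs it gave 424 to 517 calls, 387 to 470 higher and 35 to 73 lower, and a TE share ratio of 1.387 to 1.416. Without a filter 747 TEs were called, 677 higher; with a mean of at least 20 counts, which tests fewer TEs, 189, of which 152 higher and 37 lower. DESeq2 called 36 TEs lower, and 100 were lower with TMM factors of the TEs themselves.

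HAG1, not called in any setting, had log2 fold changes of -0.02 (covariate), -0.05 (without wild type replicate 2) and -0.03 (without atxr5/6 replicate 2) beside 0.08, and of -0.05 to 0.27 with 1 library left out. Differences between replicates 1 and 2, taken over the genes tested, correlated by -0.19 to 0.19 between genotypes. Such values cannot decide whether the replicate numbers pair libraries, and the labels do not say so. With a replicate block 2244 genes (929 higher, 1315 lower) and 485 TEs (418 higher, 67 lower) were called. Of 83 called features named by the rule, 42 and 43 kept their calls without atxr5/6 replicate 1 and 2.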

Other observations

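Further gene groups were written down after their values had been seen, so their counts describe these libraries and support nothing beyond them. Dark-inducible and sugar starvation genes were lower in 11 of 12 tested members (91.7%, against 7.69% of all genes), with a median of -1.86 on the log2 scale, and summed to 596 and 471 CPM in wild type against 99.4 and 99.9 CPM in atxr5/6. Besides SEN1, the asparagine synthetase DIN6 was at 109 and 81.2 CPM in wild type against 13.1 and 13.4 CPM in atxr5/6, and the branched-chain aminotransferase BCAT-2 at 6.33 and 5.68 CPM and 1.94 and 1.90 CPM. DIN10, a raffinose synthase family member, was at 285 and 199 CPM and 35.7 and 35.5 CPM. Here the wild type replicates lay close together in most genes, and wild type replicate 2 exceeded replicate 1 in 5 of 12. The group had 5 members called lower without atxr5/6 replicate 1 and 4 without replicate 2.

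Genes of aliphatic glucosinolates, sulfur-rich defence compounds of cabbage relatives, were higher in 12 of 15 tested members (80%, against 5.48% of all genes). In all 15 both mutant libraries lay above both wild type libraries, beside 5803 of all 19575 genes tested. The regulators MYB28 (14.2 and 14.9 CPM in wild type against 35.5 and 33.3 CPM in the mutant) and MYB29 (12.9 and 13.1 CPM, 33.1 and 32.0 CPM) rose, as did the side-chain oxidase FMO GS-OX3 (23.6 and 23.3 CPM, 63.9 and 68.6 CPM). FMO GS-OX3 was the only member called without atxr5/6 replicate 1 (3 without replicate 2). Genes of pattern recognition and secretion were lower in 14 of 20 tested members (70%, against 7.69% of all genes), with a median of -0.99. Examples are the receptor kinases SOBIR1 (89.1 and 154 CPM, 48.8 and 48.6 CPM) and BAK1 (29.0 and 46.1 CPM, 18.9 and 17.8 CPM) and the transporter PEN3 (885 and 1694 CPM, 408 and 412 CPM). All 20 were higher in wild type replicate 2 than in replicate 1, 9 were called without wild type replicate 2, and LYK4 alone was called without either atxr5/6 library. Of 10 tested meiotic recombination genes 4 were called higher (40%, against 5.48% of all genes). Only 1 of them, AHP2, stayed called under all 13 alternative settings. AHP2 was at 0.391 and 0.541 CPM in wild type against 3.35 and 3.40 CPM in atxr5/6.

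Of the 48 genes raised from the wild type floor, 35 were protein-coding, 6 long non-coding and 3 microRNA genes. AT2G11778 had no count in wild type and 32.6 and 31.8 CPM in atxr5/6, at least 356-fold higher. AT3G06465 was at least 118-fold higher. SDC, an F-box gene known to be silenced by DNA methylation in leaves, was at least 14.0-fold higher (0 CPM in both wild type libraries, 1.49 and 1.05 CPM in the mutant). Among 122 symbol families with at least 10 tested members, ERD genes, named for early response to dehydration, were lower in 7 of 12 and WRKY factors in 11 of 48 (22.9%), beside 7.69% of all genes, while UMAMIT amino acid transporters were higher in 7 of 31 (22.6%), beside 5.48% of all genes. These families were picked for their counts.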
